A study of Arabidopsis thaliana with 4 samples.

Results

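The cold and drought responsive CBF regulon was followed in Arabidopsis thaliana leaves through 8 genes, each read by 1 probe set of the Affymetrix ATH1 array. The genes were chosen by name, as 3 CBF transcription factors (CBF1, CBF2 and CBF3) and 5 of their targets (COR15A, COR15B, COR47, ERD10 and RD29A), and they are 8 of 22746 probe sets on the array after control probe sets are set aside. The probe sets were tied to these genes by the list that defines the group, and no table used here pairs the other probe sets with genes. All 8 loci matched the RefSeq gene table, in which CBF3 is listed as DREB1A and RD29A as LTI78.

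The study compared wild-type plants with the line AS12, which is Col-0 carrying an antisense construct against AOX1a (At3g22370) expressed from the viral 35S CaMV promoter, which is active in most plant tissues. The AOX1a protein is the main leaf form of alternative oxidase, a respiratory enzyme of mitochondria. The labels name 1 antisense line and call the controls only wild type. Both genotypes were grown at 23 °C in unfertilized soil-less mix, with a 14 h photoperiod at 350 µmol photons m-2 s-1, and the labels give no cold or drought treatment for either. Leaves were harvested shortly before noon, on day 21 from sowing. There were 2 arrays per genotype, and each array held RNA pooled from several plants: 7 in wild type 1, 9 in wild type 2, 9 in antisense 1 and 8 in antisense 2. A p-value thus rests on 2 pools per genotype and does not measure the spread between single plants.

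CBF proteins, also called DREB1 factors, are AP2/ERF-type activators whose genes are induced quickly by cold. They bind the C-repeat or dehydration-responsive element in the promoters of COR genes, which encode hydrophilic proteins that protect membranes and other proteins when cells lose water. In warm-grown plants CBF transcripts are scarce, and their low level follows the circadian clock.

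In the signals as deposited, all 5 targets averaged higher in the antisense line, and none passed the test. The level of a gene is given as the MicroArray Suite signal, a background-adjusted intensity in arbitrary units that the authors scaled to one average per array, so levels are compared between arrays and not between genes. The test was limma's moderated test on log2 signals with Benjamini-Hochberg adjustment over 13648 probe sets, those left after the 40% with the lowest mean log2 signal were set aside. The moderation draws a gene's variance towards that of probe sets with similar signal, here with 4.25 prior against 2 residual degrees of freedom. An SE or interval can thus be narrower than a gene's own 2 arrays per genotype would give. The 5 targets were tested. The 3 CBF probe sets fell below the filter, whose lowest tested mean was a signal of 97.4, so their values are given without a test. Fewer cells of one type and less RNA per cell cannot be told apart in whole leaves.

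The arrays did not sort by genotype. Across the tested probe sets wild type 1 was closest to antisense 2 (r = 0.974) and wild type 2 to antisense 1 (r = 0.975), while the wild-type arrays correlated at 0.970 and the antisense arrays at 0.958. These correlations are across probe sets, which are not independent replicates. Of the 3 ways to split 4 arrays 2 against 2, the genotypes were apart without overlap in 26.8% of tested probe sets. The split by replicate number was apart in 23.3%, and the crossed split of wild type 1 and antisense 2 against the others in 49.8%. The AOX1a transcript and leaf cell markers were not analysed here, so neither the genotype labels nor the labelled tissue could be checked against marker genes. In the facility's quality sheet, background was 48.58 and 47.93 on the arrays numbered 1 (wild type, antisense) and 51.81 and 53.16 on those numbered 2. The part of these array differences in the values that follow was not tested.

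The 3 CBF genes lie in tandem, with no other protein-coding gene between CBF1 and CBF3 or between CBF3 and CBF2 in the TAIR10.1 gene table. They encode closely similar proteins. Whether probes made for one also bind another was not tested, since no probe sequences were used. Each of the 3 CBF genes read highest on antisense 1. CBF1 (254074_at) gave signals of 11.1 in wild type 1, 14.9 in wild type 2, 91.3 in antisense 1 and 10.3 in antisense 2. Antisense 1 alone was high. The other arrays read close to 8.1, the 10th percentile of all values, and without detection calls their order and the exact folds of CBF1 carry no weight. CBF3 (254066_at) gave 54.0 and 47.9 in the wild-type arrays, 190.4 in antisense 1 and 34.9 in antisense 2. Its single high array was the same one, and the others were also faint. Among probe sets below the filter, 2.1% had antisense 1 at least 3-fold above each other array, a limit chosen after these values were seen. In the same class 50.5% spanned at least 3-fold between their highest and lowest array, so wide swings are common at this signal level.

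CBF2 (254075_at) followed another order. It gave 40.3 in wild type 1, 147.3 in wild type 2, 150.4 in antisense 1 and 73.7 in antisense 2. Wild type 2 and antisense 1 were nearly equal (ratio 1.02) and both stood above the other arrays. The genotypes overlapped for all 3 CBF genes. The mean log2 difference, antisense minus wild type, was 1.25 for CBF1, 0.45 for CBF2 and 0.68 for CBF3, and it turned with a single array. Without antisense 1 it was -0.32, -0.06 and -0.54, for CBF1 between faint values. For CBF2 it was also below 0 without wild type 1, at -0.48. The SD of the antisense log2 signals was 2.23 for CBF1 and 1.73 for CBF3 (n = 2), larger than either mean difference. Tested without any filter, each had an adjusted p (limma) of 1.

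**Figure D1:**
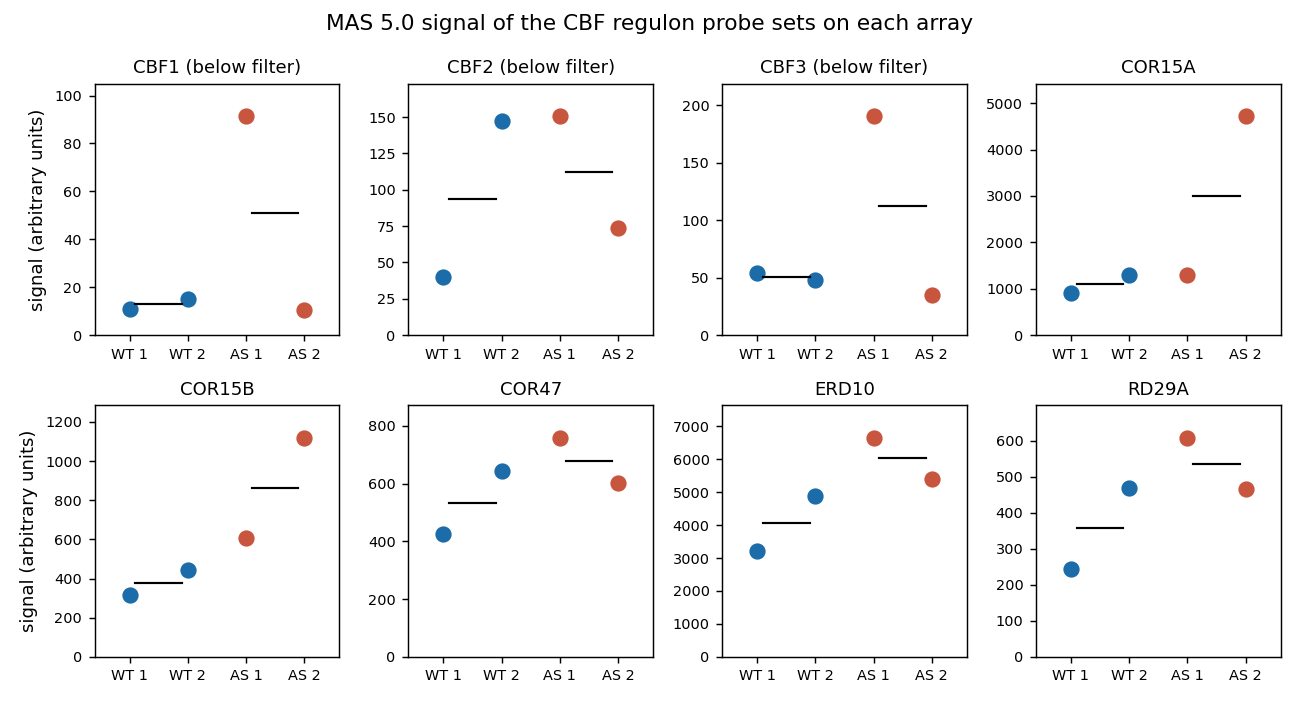
Signal of each probe set (arbitrary units, linear axis from 0, scaled separately for each gene) on the wild-type arrays (blue, WT 1 and WT 2) and the antisense arrays (red, AS 1 and AS 2); black lines are the means of 2 arrays. Antisense 1 is the highest array for 6 of the 8 genes and antisense 2 for COR15A and COR15B, and wild type 1 is the lowest for all 5 targets.

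COR15A and COR15B are neighbouring genes with no protein-coding gene between them, and encode related proteins of the chloroplast stroma that stabilise membranes during freezing. They had the largest mean log2 differences among the targets, and both read highest on antisense 2. COR15A (263497_at) gave 897.4 in wild type 1, 1302.0 in wild type 2, 1288.6 in antisense 1 and 4714.8 in antisense 2. Antisense 1 lay within the wild-type range while antisense 2 was 3.66-fold above it, so the genotypes overlapped. Only 13 of the 13648 tested probe sets (0.0953%) were at least 3-fold higher on antisense 2 than on antisense 1, a limit again chosen after the values were seen. The antisense arrays averaged 3002 ± 2423 and the wild-type arrays 1100 ± 286 (signal, SD, n = 2). The log2 difference was 1.19 (SE 0.58, 95% interval -0.21 to 2.59), a ratio of geometric means of 2.28, with an adjusted p above 0.99 by limma. It rested on antisense 2: without that array it was 0.25, and without antisense 1 it was 2.12 (adjusted p 0.056 by limma, the lone antisense array taken to vary like the others; 0.056 to 1 over all alternatives).

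COR15B (263495_at) gave 314.0 and 445.7 in the wild-type arrays, 609.7 in antisense 1 and 1117.1 in antisense 2. Both antisense arrays lay above both wild-type arrays. This order held for COR15B and ERD10 among the targets and for 10.7% of all tested probe sets, while 16.1% had the reverse order. The mean signal was 863 ± 359 in the antisense line against 380 ± 93.1 in the wild type (SD, n = 2). The log2 difference was 1.14 (SE 0.34, 95% interval 0.32 to 1.96), or 2.21-fold. Its unadjusted p was 0.0139 by limma and its adjusted p above 0.99. Without antisense 2 the difference was 0.70, and without wild type 1 it was 0.89.

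COR47 and ERD10 also lie side by side with no protein-coding gene between them, and both encode acidic dehydrins, proteins that accumulate in drying or chilled cells. ERD10 (259516_at) gave 3225.4 and 4893.2 in the wild-type arrays, 6639.7 in antisense 1 and 5407.2 in antisense 2. The genotypes did not overlap, but antisense 2 was only 1.11-fold above wild type 2. The mean signal was 6023 ± 872 against 4059 ± 1179 (SD, n = 2), a log2 difference of 0.59 (SE 0.24, 95% interval 0.01 to 1.18) with an unadjusted p of 0.0473 and an adjusted p above 0.99 by limma. Without wild type 1 the difference was 0.29, and without wild type 2 it was 0.89. COR47 (259570_at) gave 424.0 and 644.4 in the wild type, 757.3 in antisense 1 and 602.7 in antisense 2. Wild type 2 lay between the antisense arrays, so the genotypes overlapped. The mean signal was 680.0 ± 109 against 534 ± 156 (SD, n = 2), and the log2 difference of 0.37 (SE 0.26, 95% interval -0.27 to 1.01, adjusted p above 0.99 by limma) was the smallest of the targets. It was 0.07 without wild type 1, 0.67 without wild type 2 and 0.21 without antisense 1.

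RD29A encodes a hydrophilic protein and is a widely used marker of cold, drought and abscisic acid responses. Its probe set (248337_at) gave 244.5 in wild type 1, 469.3 in wild type 2, 606.7 in antisense 1 and 465.8 in antisense 2. Wild type 2 and antisense 2 differed by under 1% (ratio 0.993), and wild type 1 alone was low. The antisense arrays averaged 536 ± 99.6 and the wild-type arrays 357 ± 159 (signal, SD, n = 2). The log2 difference was 0.65 (SE 0.34, 95% interval -0.17 to 1.47, adjusted p above 0.99 by limma), and without wild type 1 it was 0.18.

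Over the targets together, 5 of 5 were tested and 0 passed an adjusted p of 0.05 in either direction, where 0.0% of all tested probe sets passed it as higher and 0.0% as lower. At an unadjusted p of 0.05 limma gave 2 of 5 as higher (COR15B and ERD10) and 0 of 5 as lower, against 1.69% and 1.09% of all tested probe sets. The median log2 difference was 0.65 over the 5 targets and -0.03 over all tested probe sets. A difference above 0 was found in 5 of 5 targets and in 44.0% of all tested probe sets. The genes were chosen with earlier results of these data known, so these counts and medians are descriptions and no independent support for a direction. The neighbouring or co-regulated genes are not independent of each other, and the same 4 arrays stand behind all of them. With 2 arrays against 2, an exact permutation test of a single gene cannot give a two-sided p below 0.333.

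**Figure D2:**
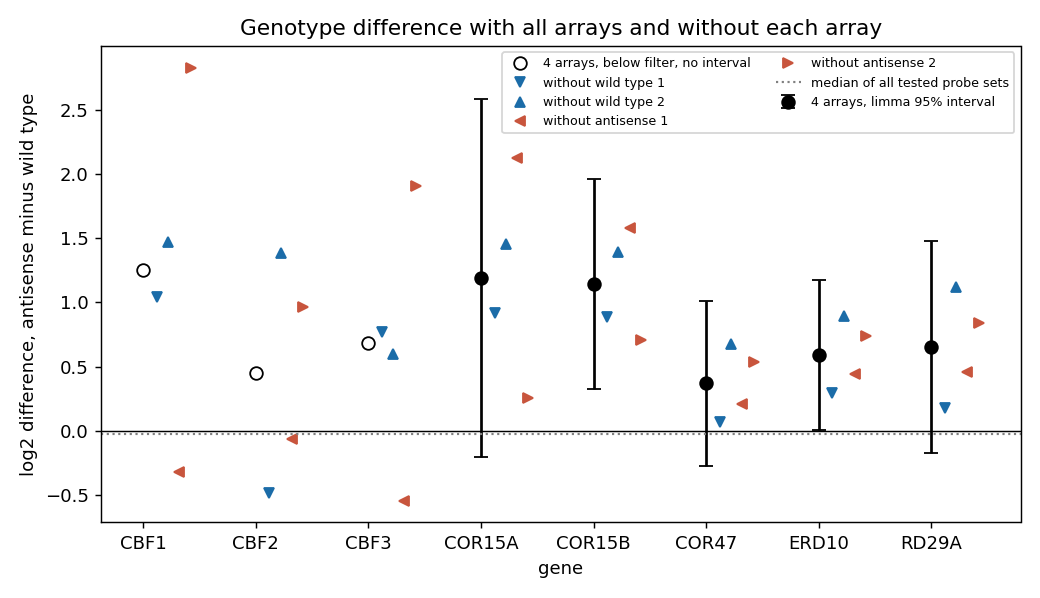
Log2 difference in signal, antisense minus wild type, for each gene. Filled circles with bars are limma estimates from 4 arrays with 95% intervals, open circles are the CBF genes below the filter without an interval, triangles leave out 1 array, and the dotted line is the median of all tested probe sets (-0.03). The targets stay above 0 without any single array, while the CBF genes fall below 0 without antisense 1.

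Wild type 1 read low for the targets. It was the lowest array for 5 of 5 targets, against 25.1% of all tested probe sets, and in each it was at least 1.4-fold below every other array, which held for 2.56% of tested probe sets (a limit set after the values were seen). The ratio of 3' to 5' signal of the control transcript ubiquitin, which rises when RNA is degraded, was also highest on wild type 1, at 4.68 against 3.16 in wild type 2, 3.45 in antisense 1 and 3.82 in antisense 2. Of the 6 such ratios of actin, GAPDH and ubiquitin in the signal table, 3 were highest on that array. Wild type 1 also had the highest scale factor in the quality sheet, 4.54 against 4.07 to 4.34 on the other arrays. Its percent of probe sets called present was the lowest, 55.5 against 55.9 to 57.3. The part of these values in the low target signals was not tested. Wild type 2 exceeded wild type 1 by a ratio of 1.45 for COR15A, 1.42 for COR15B, 1.52 for COR47, 1.52 for ERD10 and 1.92 for RD29A. The median difference over the 5 targets was 0.29 without wild type 1 and 1.12 without wild type 2. Without antisense 1 it was 0.46 and without antisense 2 it was 0.70.

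Taken within a replicate number, the comparison gave different pictures. Among the arrays numbered 1, antisense was above wild type for 8 of 8 genes, by 1.44-fold (COR15A) to 2.48-fold (RD29A) among the targets, and for 50.1% of all tested probe sets. Among those numbered 2 it was above for 3 of 8, COR15A (3.62-fold), COR15B (2.51-fold) and ERD10 (1.11-fold), and for 42.8% of all tested probe sets. The 8 genes include the CBF genes, which lay below the filter and are not among the tested probe sets. On the arrays numbered 2 the ratio was 0.935 for COR47, 0.993 for RD29A and 0.50 for CBF2, which lay below the filter. It was also below 1 for the faint CBF1 and CBF3. COR15A, COR15B and ERD10 were thus higher in the antisense line within both numbers, but the labels do not make equal numbers pairs. Matched the other way, antisense 1 over wild type 2 was 0.990 for COR15A, 1.37 for COR15B and 1.36 for ERD10. The difference between the numbers was not tested, since each holds 1 array per genotype.

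**Figure D3:**
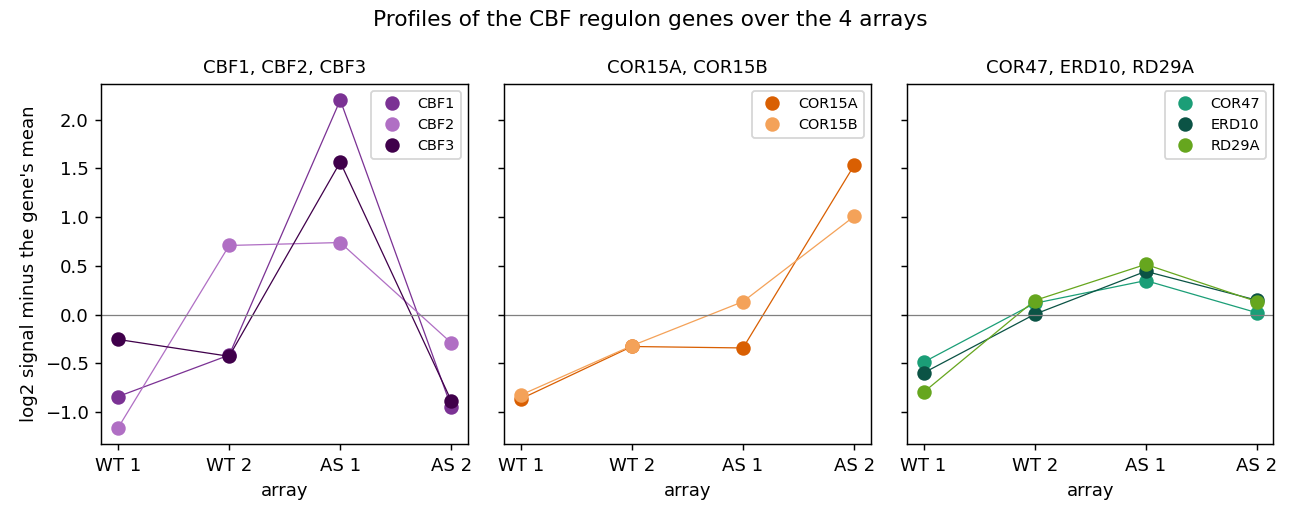
Log2 signal of each gene minus its own mean over the 4 arrays, for the CBF genes (left), the COR15 pair (middle) and COR47, ERD10 and RD29A (right); thin lines only join the points of a gene. CBF1 and CBF3 peak on antisense 1, the COR15 pair peaks on antisense 2, and the genes on the right have similar profiles. All 5 targets are lowest on wild type 1.

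Antisense 1 was the highest array for COR47, ERD10 and RD29A, 3 of the 5 targets, as for 28.4% of all tested probe sets. As a measure of likeness, the Euclidean distance between mean-centred log2 profiles over the 4 arrays was used, for which 0 means the same ups and downs. COR47, ERD10 and RD29A were close to each other, with distances of 0.22 (COR47 and ERD10), 0.25 (ERD10 and RD29A) and 0.37 (COR47 and RD29A). As many as 170 tested probe sets (1.25%) were as close to COR47 as ERD10 was, and 48 (0.352%) as close to ERD10 as COR47 was. For ERD10 and RD29A these counts were 86 around ERD10 and 26 around RD29A. For COR47 and RD29A they were 936 (6.86%) around COR47 and 97 (0.711%) around RD29A. The COR15 pair was 0.71 apart, with 3 tested probe sets, COR15B included, as close to COR15A and 62, COR15A included, as close to COR15B. COR15A lay 1.65 to 1.76 from the other 3 targets.

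CBF1 and CBF3 were 0.87 apart, a distance that rests on faint signals. CBF2 was 1.98 from CBF1 and 1.77 from CBF3, but 0.83 from RD29A, with 140 tested probe sets (1.03%) as close to CBF2 and 2768 (20.3%) as close to RD29A. CBF2 also lay below the filter, where wide swings are common, so its distances carry the same limit. These are descriptions over 4 arrays, without a test.

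Each gene without ties separates exactly 1 of the 3 splits of the arrays. The genotypes were apart for 2 of the 8 genes (COR15B and ERD10), the replicate numbers for 2 (CBF3 and COR15A) and the crossed split for 4 (CBF1, CBF2, COR47 and RD29A). These counts are near the shares over all tested probe sets, 26.8%, 23.3% and 49.8%, and say nothing particular about these genes. The 8 genes include the CBF genes, which lay below the filter, while all these shares are over tested probe sets. CBF1 and CBF3 are placed by the order of faint arrays, which carries no weight for CBF1. For the crossed split, wild type 2 and antisense 1 were the high arrays in all 4, thus in 4 of the 8 genes. That direction held for 27.9% of all tested probe sets, or for 3810 of the 6796 that this split sets apart. The mean log2 difference of that pair over the other arrays was 1.45 for CBF2, 0.47 for COR47 and 0.66 for RD29A. RD29A and COR15A were near to changing splits. Antisense 2 over wild type 2 was 0.993 for RD29A, and antisense 1 over wild type 2 was 0.990 for COR15A. COR47, with antisense 2 over wild type 2 at 0.935, stayed in the crossed split under quantile, median and cyclic loess scaling. Under quantile and median scaling the genotypes were apart for 3 genes, with RD29A added, and after cyclic loess for 4, with RD29A and COR15A added.

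**Figure D4:**
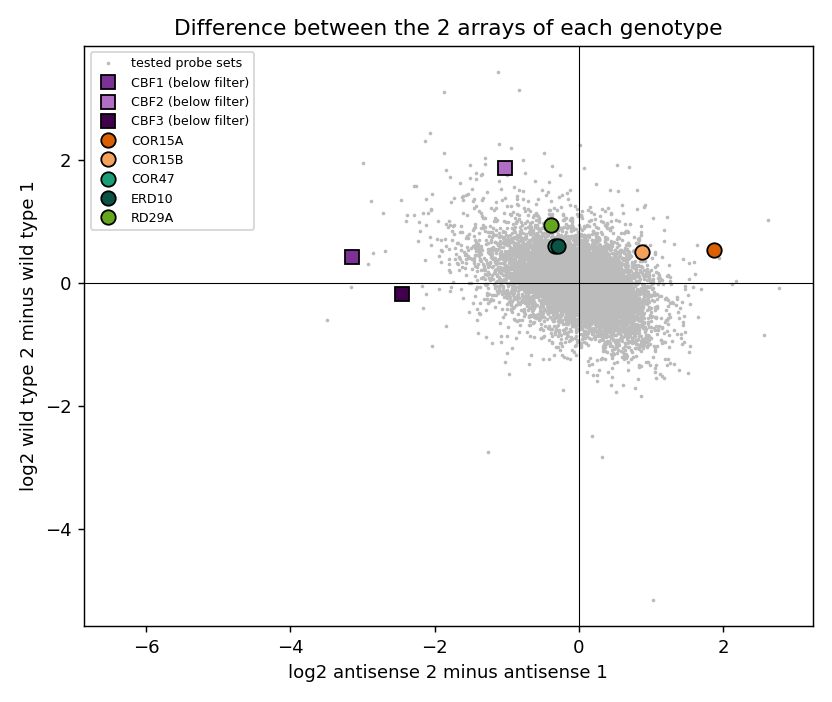
Log2 difference between the antisense arrays (x axis, antisense 2 minus 1) and between the wild-type arrays (y axis, wild type 2 minus 1) for all tested probe sets (grey) and the 8 genes (circles tested, squares below the filter). COR15A lies far right (3.66-fold), CBF1 and CBF3 far left, CBF2 and RD29A high, and COR47 and ERD10 nearly coincide.

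The 8 genes also differed in how the arrays of one genotype compared. Antisense 2 over antisense 1 was 3.66 for COR15A and 1.83 for COR15B, but 0.796 for COR47, 0.814 for ERD10 and 0.768 for RD29A. For CBF2, which lay below the filter, the same ratio was 0.490, and CBF1 and CBF3 also read lower on antisense 2 than on antisense 1. COR15A and COR15B read highest on antisense 2, while COR47, ERD10, RD29A and the CBF genes read highest on antisense 1. The CBF1 and CBF3 signals were faint on the other arrays, and a link between CBF and target signals was not tested.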

How the data were processed

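Labelled cRNA from 4 pools of leaf RNA was hybridised to 4 ATH1 arrays, and per the labels' descriptions the authors computed signals with MicroArray Suite 5.0. For each of 22810 probe sets the deposited table has 1 intensity per array on a linear scale, as scaled by the authors (means after trimming 2% at each end of 500.05 on every array). Detection calls were not used here. The deposited quality sheet gives other per-array values, of which background, scale factor and percent present are quoted. Its column headed Actin matched, to the rounding of the sheet on all 4 arrays, the first ubiquitin pair of control probe sets.

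The intensities were log2-transformed without further scaling. The 64 control probe sets and the 40% with the lowest mean were left out, and genotypes were compared with limma 3.58.1 in R 4.3.3 (eBayes with an intensity trend, Benjamini-Hochberg adjustment, threshold 0.05), after the fit was tested on simulated data. The number of arrays limits the precision. All 8 members were to be named. The lists of further pathway genes and markers, the genes of similar profile and the promoter motifs were left out, since the tables used here neither pair other probe sets with genes nor hold sequences. The members and lists were chosen with earlier results of these data known. Equal replicate numbers were not taken as pairs: the labels tie nothing to them, and across tested probe sets the number 1 minus number 2 differences of the genotypes had a correlation of -0.42. Alternatives were other scalings, an offset before the log, other filters, no trend, a replicate block, an adjusted p of 0.1 as the limit and omission of each array in turn. A crossed pairing was added after seeing the data.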

Additional observations from a re-analysis of the deposited data

How the results depend on the processing

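By limma, 0 of the tested genes were called under all 14 alternatives (5 genes tested in 12 of them, 6 without wild type 1 and 8 with no filter), and all 70 alternative values of the 5 tested targets kept a difference above 0, with 0 past the threshold; their adjusted p ran from 0.056 (COR15A without antisense 1) to 1. The replicate block gave 0 called genes of 5 and 0 called probe sets. A block, a crossed pairing, another filter, no trend or another threshold cannot change a target's difference in this balanced design. Those among the 70 values thus repeat the main ones, and only scaling, the offset and left-out arrays could move a difference. The median difference of the tested genes was 0.24 to 1.12 with 1 array left out; the 0.24 arose without wild type 1, where CBF2 also passed the filter, and 1.12 without wild type 2. Under the other settings it was 0.64 to 0.67. The CBF values turned below 0 only with an array left out, at -0.32 to 2.83 for CBF1, -0.48 to 1.39 for CBF2 and -0.54 to 1.90 for CBF3. The genotypes were apart for 3 genes under quantile and median scaling and 4 under cyclic loess, in place of 2. Over all probe sets, 0 calls became 1 under quantile normalization, median scaling, cyclic loess and a threshold of 0.1, 2 with the offset of 8.1 and 1 to 12 with 1 array left out (12 without antisense 2). The crossed pairing of wild type 1 with antisense 2 called 44 probe sets and 0 of the 5 genes tested. The cause of these shifts was not tested. The alternatives planned for gene lists were not run, since the lists were not used. The faint CBF signals limit what 4 arrays can show.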
